A study of Xenopus tropicalis x Xenopus laevis and Xenopus tropicalis with 6 samples.

Results

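Caspases, their adaptor Apaf1 and the Bcl2 family were measured in inviable frog hybrids at 7 hours after fertilization. The set holds 8 genes, the caspases casp2, casp6, casp8 and casp9, the adaptor apaf1, the death inhibitors bcl2l1 and mcl1, and the pore former bax. The genes were chosen by name, and 16 of the 45244 annotated gene models (features) in the count table carry these names. Of the 16, 5 belong to *X. tropicalis* and 11 to *X. laevis*, and 6 of the *X. laevis* features were found through their human gene name alone. Hybrids came from *X. tropicalis* eggs and *X. laevis* sperm (replicates 40, 41 and 42). The comparison embryos were *X. tropicalis* (replicates 37, 38 and 39), so both groups developed from eggs of one species. PolyA RNA of whole embryos was sequenced in 3 libraries per group, no treatment was given, and the labels do not say how many embryos a library pooled.

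Apoptosis in vertebrates runs through caspases, proteases kept inactive until an adaptor brings them together. On the mitochondrial route, Bax opens the outer membrane unless Bcl2l1 or Mcl1 holds it back. Released cytochrome c then lets Apaf1 assemble into the apoptosome, which activates caspase 9. Caspase 8 is started by death receptors, caspase 2 by the PIDD1 and Cradd complex, and caspase 6 acts downstream. *Xenopus* embryos carry caspases and Bcl2 family members from the egg, and can start apoptosis around the onset of gastrulation when earlier divisions went wrong. Messenger RNA levels say nothing of whether a caspase was cleaved.

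The libraries held 71435751 to 100025277 counts each. *X. laevis* features took 15.4 to 17.6% of them in hybrids and 5.33 to 5.92% in *X. tropicalis* embryos, which carry no *X. laevis* genes, so their libraries give the background of each paternal feature. The series calls the libraries of a group biological replicates. Every p-value rests on the spread among these libraries, estimated for each feature with help from the other features tested. Low counts were detected more often in hybrid replicate 41 and *X. tropicalis* replicate 38, in which 16.8% and 35.8% of all features were at 0 against 22.7 to 27.3% and 39.3 to 40.9% in the other libraries of their groups. CPM are counts per 1000000 of the effective library size, with scaling factors from *X. tropicalis* features. All 14 measured genes of the early gastrula had means at or above 1 CPM in both groups. Their summed levels were 3438 to 4116 CPM in hybrids and 3624 to 3815 CPM in *X. tropicalis*. Every hybrid library was above every *X. tropicalis* library for eomes, foxi1, gsc, mix1 and sox17b. The reverse held for nodal, vegt, ventx2 and wnt8a. These levels sum features of both species. Among sums under human gene names, scaled by their own factors, the hybrid libraries were all above in 16.8% and all below in 13.0%. Levels of foxi1 were 85.9 to 91.9 CPM in hybrids and 20.7 to 31.1 CPM in *X. tropicalis*. Those of wnt8a were 34.9 to 59.2 CPM and 80.4 to 91.2 CPM in the same order. The similar sums thus do not show that the groups were at the same stage, which was not tested. Of 8 genes of later organs, 5 had means under 1 CPM in both, while the means of ins and pax6 in both groups and of ttr in hybrids were above it. The summed level of these 8 was 29.8 to 54.4 CPM in hybrids and 40.2 to 78.0 CPM in *X. tropicalis*.

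Hybrids inherited the *X. tropicalis* genome from the egg alone, and *X. tropicalis* embryos from egg and sperm, so fewer gene copies and less transcript per copy cannot be told apart in these features. The series holds no *X. laevis* library, so paternal reads counted on *X. tropicalis* features could not be measured. Across the *X. tropicalis* copies mcl1 was lower in hybrids and the 3 caspases and apaf1 did not pass the test. Of 5 member features tested, 0 were higher and 1 was lower (edgeR quasi-likelihood test, adjusted p under 0.05), against 0.824% and 2.95% of the 14079 *X. tropicalis* features tested. Both DESeq2 and edgeR at p under 0.05 before adjustment gave 0 and 1. Their median log2 fold change of hybrid over *X. tropicalis* was -0.15, beside 0.01 over all features tested. Scaling factors came from *X. tropicalis* features, which sets the median over all of them near 0. A change shared by most of these features, as from fewer gene copies, would thus be scaled away.

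The *X. tropicalis* copy of mcl1, on chromosome 8, encodes a short-lived Bcl2 relative that binds and restrains the death effectors. It stood at 218, 199 and 225 CPM in hybrid replicates 40, 41 and 42, and at 306, 286 and 322 CPM in *X. tropicalis* replicates 37, 38 and 39. Every hybrid library lay below every *X. tropicalis* library, with a gap between the groups that was larger than the range within either. The hybrid mean was 214 CPM ± 13.5 (SD, n = 3) against 305 CPM ± 18.4, which is 70.3% of the *X. tropicalis* level. The log2 fold change was -0.51 ± 0.11 SE (95% interval -0.75 to -0.26, edgeR adjusted p = 0.0300). The direction held without each library in turn (-0.55 to -0.46), but the call was lost in all 6 such fits, with adjusted p from 0.0526 to 0.153. In whole embryos, fewer cells that make a transcript and less transcript per cell cannot be told apart.

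The initiator caspase gene casp2, on an unplaced scaffold, stood at 116, 122 and 179.9 CPM in hybrids and at 132, 136 and 97.1 CPM in *X. tropicalis*. The groups overlapped, and hybrid replicate 42 and *X. tropicalis* replicate 39 lay apart from the others on opposite sides. The log2 fold change was 0.19 (95% interval -0.24 to 0.63, edgeR adjusted p = 0.703), and -0.03 without hybrid replicate 42. For casp6, an executioner on chromosome 1, the hybrid libraries gave 112, 94.5 and 100.2 CPM and the *X. tropicalis* libraries 113, 114 and 114 CPM. All 3 hybrid libraries lay below the others, replicate 40 by a narrow margin. The fold change was small at -0.15 (95% interval -0.43 to 0.13, edgeR adjusted p = 0.618). With mcl1, casp6 was the other member feature whose hybrid libraries were all below, as were those of 12.7% of all *X. tropicalis* features tested.

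The initiator caspase gene casp9 and its activator apaf1 were both expressed from the *X. tropicalis* copy. The *X. tropicalis* feature of casp9, on an unplaced scaffold, gave 14.7, 12.1 and 13.8 CPM in hybrids and 12.3, 10.5 and 6.49 CPM in *X. tropicalis*. Hybrid replicate 41 fell within the range of the *X. tropicalis* libraries, of which replicate 39 was lowest. The log2 fold change was 0.47 (95% interval -0.23 to 1.17, edgeR adjusted p = 0.508). The *X. tropicalis* feature of apaf1, on chromosome 3, gave 15.1, 12.5 and 15.8 CPM in hybrids and 18.0, 16.6 and 15.6 CPM in *X. tropicalis*, with 1 hybrid library inside the range of the other group. Its log2 fold change was -0.21 (95% interval -0.74 to 0.32, edgeR adjusted p = 0.7500). The apaf1 interval still includes a fall of the size seen in mcl1 and that of casp9 does not, and a p that misses the threshold does not show equal levels. The genes casp8, bcl2l1 and bax were counted on *X. laevis* features alone, and their *X. tropicalis* copies were not analysed here.

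**Figure D1:**
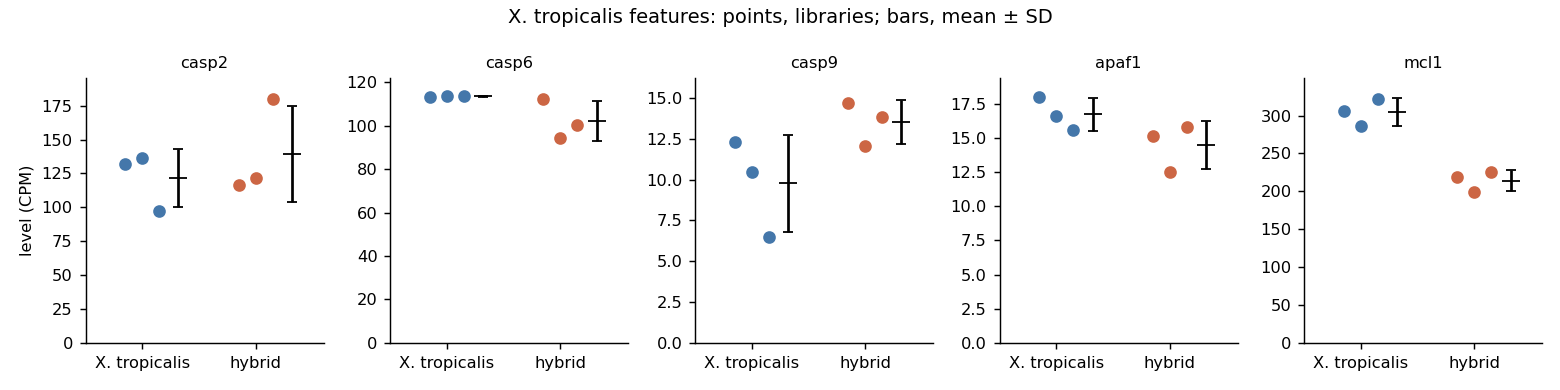
Levels in CPM of the 5 *X. tropicalis* features in each library (points) with the group mean ± SD (bars), by group. The hybrid libraries of mcl1 lie at 199 to 225 CPM, all below the 286 to 322 CPM of *X. tropicalis*, while casp2, casp9 and apaf1 overlap between groups.

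From the paternal side, the mcl1 copies rose far above background, and those of the caspases and apaf1 were weak or not separable from it. All 11 *X. laevis* features reached the 10 counts in hybrids needed for a test, and 4 were above the *X. tropicalis* background and 0 below (edgeR; DESeq2 and edgeR before adjustment also gave 4 and 0). This is 36.4%, beside 40.5% of the 23919 *X. laevis* features tested being above and 0.196% below, so the share is near that of paternal features in general. The 4 were mcl1.L, mcl1.S, the casp2 copy and apaf1.L, and in each of them all hybrid libraries lay above all *X. tropicalis* libraries, as for 46.4% of features tested. In 0 of the 11 did they all lie below, which was so for 0.736% of features. Features entered this test through hybrid counts alone, which leaves out those counted only in *X. tropicalis* libraries and so favours calls above. Without the filter 9700 *X. laevis* features were above and 76 below, in place of 9699 and 47. The members again gave 4 and 0.

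*X. laevis* is allotetraploid, and mcl1 was counted on both its long (L) and short (S) chromosome 8. The L copy, mcl1.L, stood at 86.5, 101.3 and 105 CPM in hybrids against a background of 0.174, 0.0626 and 0.122 CPM in *X. tropicalis* libraries. The S copy, mcl1.S, stood at 71.03, 82.8 and 96.3 CPM against 1.41, 1.27 and 1.03 CPM. Both copies had 5271 to 8618 counts in every hybrid library and 6 to 138 in the others, so the groups lay far apart. The log2 fold change over background was 9.66 ± 0.42 SE for mcl1.L (edgeR adjusted p = 1.09e-16) and 6.07 ± 0.34 SE for mcl1.S (adjusted p = 1.76e-14), and both calls held without each library in turn. The ratio of mcl1.L to mcl1.S was 1.22, 1.22 and 1.09 in hybrid replicates 40, 41 and 42, in counts not corrected for transcript length.

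Set against the maternal copy of the same gene, the paternal copies of mcl1 reached 0.721, 0.925 and 0.896 times its CPM. These values are for replicates 40, 41 and 42. Counts of the maternal copy may include RNA carried over from the egg, and paternal counts cannot. Ratios and shares thus do not compare how strongly the copies were transcribed. They held 45.7% ± 3.35 (SD, n = 3) of all mcl1 counts in hybrids and 0.446% ± 0.0818 in *X. tropicalis* libraries. The same share was taken over 10040 genes with features of both species and at least 1 CPM in hybrids. Its median was 9.95% and its quartiles 2.52% and 36.97%, and that of mcl1 was larger than in 79.3% of them. No background was subtracted here, so these shares include counts that cannot be paternal. With background subtracted the share of mcl1 was 45.6%, but the shares of all genes were not corrected in this way. Shares of other members were 1.59% ± 0.458 for casp2, 1.28% ± 1.13 for casp6 and 3.53% ± 2.81 for apaf1. Leaving out a hybrid library moved that of casp6 between 0.826% (without replicate 42) and 1.91% (without replicate 40), and that of apaf1 between 2.33% (without replicate 41) and 5.08% (without replicate 40). That of casp9 was 25.4% ± 2.65 in hybrids but 34.9% ± 7.51 in *X. tropicalis* libraries, where none of it can be paternal.

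**Figure D2:**
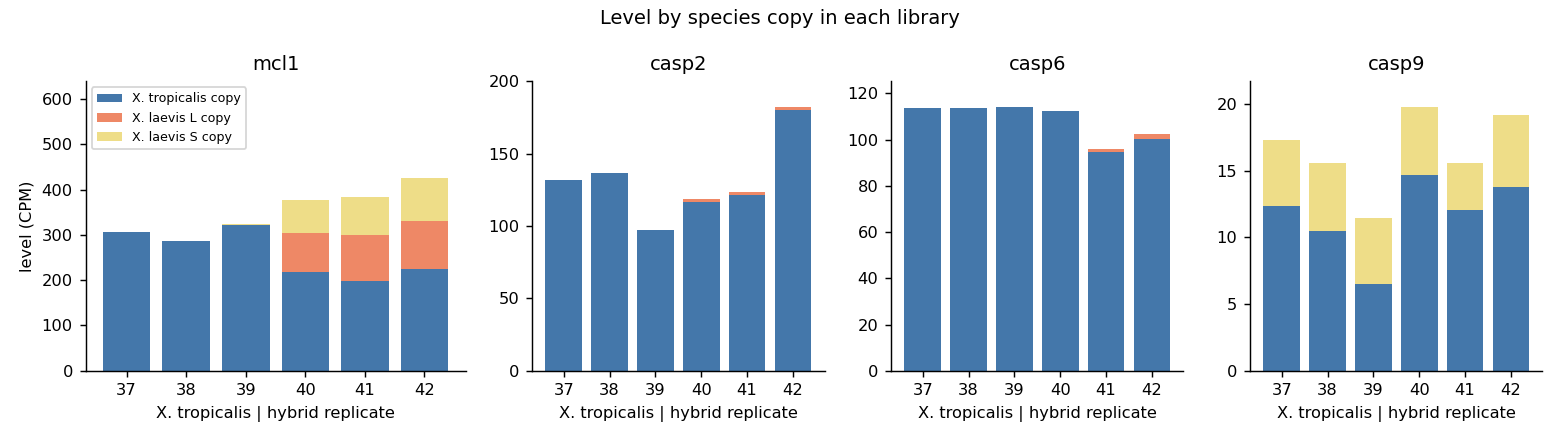
Level in CPM by species copy of mcl1, casp2, casp6 and casp9, 1 bar per library, with *X. tropicalis* replicates 37 to 39 on the left and hybrid replicates 40 to 42 on the right of each panel. In mcl1 the L and S copies add to a smaller *X. tropicalis* copy in hybrids. Counts on the casp9 S feature lie at 3.54 to 5.36 CPM over both groups, and those in *X. tropicalis* cannot be paternal.

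The paternal caspase and apaf1 copies were far weaker. The casp2 copy on chromosome 7L, named by a model number (Xelaev18034314m), gave 170, 186 and 126 counts in hybrids, or 2.29, 2.19 and 1.95 CPM, and no count in *X. tropicalis*. With a floor of 3 counts over the *X. tropicalis* libraries, counts pooled over the hybrid libraries were at least 215.5-fold higher. This floor covers counting error only, not the spread between libraries. The fitted log2 fold change had an interval of 6.65 to 14.5 (edgeR adjusted p = 5.83e-05). The casp2 copy passed in all 6 fits that left out a library. The copy apaf1.L lies on chromosome 3L and had 5, 67 and 45 counts in hybrids and none in *X. tropicalis*. Its pooled counts were at least 52.3-fold higher against the same floor. The fit, which takes in the spread between libraries, gave a log2 interval of 1.90 to 15.1 (edgeR adjusted p = 0.0359). Replicate 40 was close to 0, and the call was lost in 5 of 6 fits that left out a library, all but that without replicate 40 itself (adjusted p up to 0.167).

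The copy casp6.L, on chromosome 1L, had 2, 133 and 146 counts in hybrids and 26, 1 and 0 in *X. tropicalis*. Hybrid replicate 40 lay within the background, and the feature did not pass (log2 fold change 3.78 ± 1.85 SE, edgeR adjusted p = 0.104). It passed without hybrid replicate 40 (log2 fold change 4.36, adjusted p = 0.0265) or *X. tropicalis* replicate 37 (7.61, adjusted p = 0.0112), and without hybrid replicate 42 the estimate was 3.09 (adjusted p = 0.275). Both casp8 copies, on chromosomes 9_10L and 9_10S, had 24 counts each in hybrid replicate 41 and 0 in the other 5 libraries. Replicate 41 was also the hybrid library with the fewest features at 0, and the part of this in the result was not tested. A single library with the same count on both copies gives no replicated level, and neither passed (edgeR adjusted p = 0.237 for each).

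Counts on the S feature of casp9, on chromosome 7S, were as high in *X. tropicalis* libraries as in hybrids. This feature stood at 5.05, 3.54 and 5.36 CPM in hybrids and at 4.96, 5.10 and 4.95 CPM in *X. tropicalis*. Hybrid replicate 41 was lowest and the groups overlapped (log2 fold change -0.11, 95% interval -1.26 to 1.05, edgeR adjusted p = 0.886). The *X. tropicalis* counts on this feature cannot be paternal expression, and the hybrid level did not stand above them. How many such counts the hybrids held was not measured, so the comparison sets no limit on paternal casp9 transcripts. The hybrid mean of 4.65 CPM ± 0.974 (SD, n = 3) was below the background mean of 5.004 CPM ± 0.0848. For bax only a chromosome 7S feature was counted (Xelaev18037800m). It stood at 60.8, 50.2 and 54.9 CPM in hybrids and at 109, 56.6 and 66.2 CPM in *X. tropicalis*, with no hybrid library above an *X. tropicalis* library other than replicate 38. The highest library was *X. tropicalis* replicate 37, the groups overlapped, and the log2 fold change was -0.48 (95% interval -1.02 to 0.06, edgeR adjusted p = 0.148). Since *X. tropicalis* embryos carry no *X. laevis* genes, their counts on this feature cannot be paternal expression either.

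The bcl2l1 gene, which encodes Bcl-xL, had few counts. Its L copy on chromosome 9_10L had 70, 4 and 63 counts in hybrids and 0, 10 and 0 in *X. tropicalis* (edgeR adjusted p = 0.177). Its S copy had 2, 12 and 3 counts in hybrids and 0, 28 and 94 in *X. tropicalis* (adjusted p = 0.457). Neither copy separated the groups, and the higher group differed between them.

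**Figure D3:**
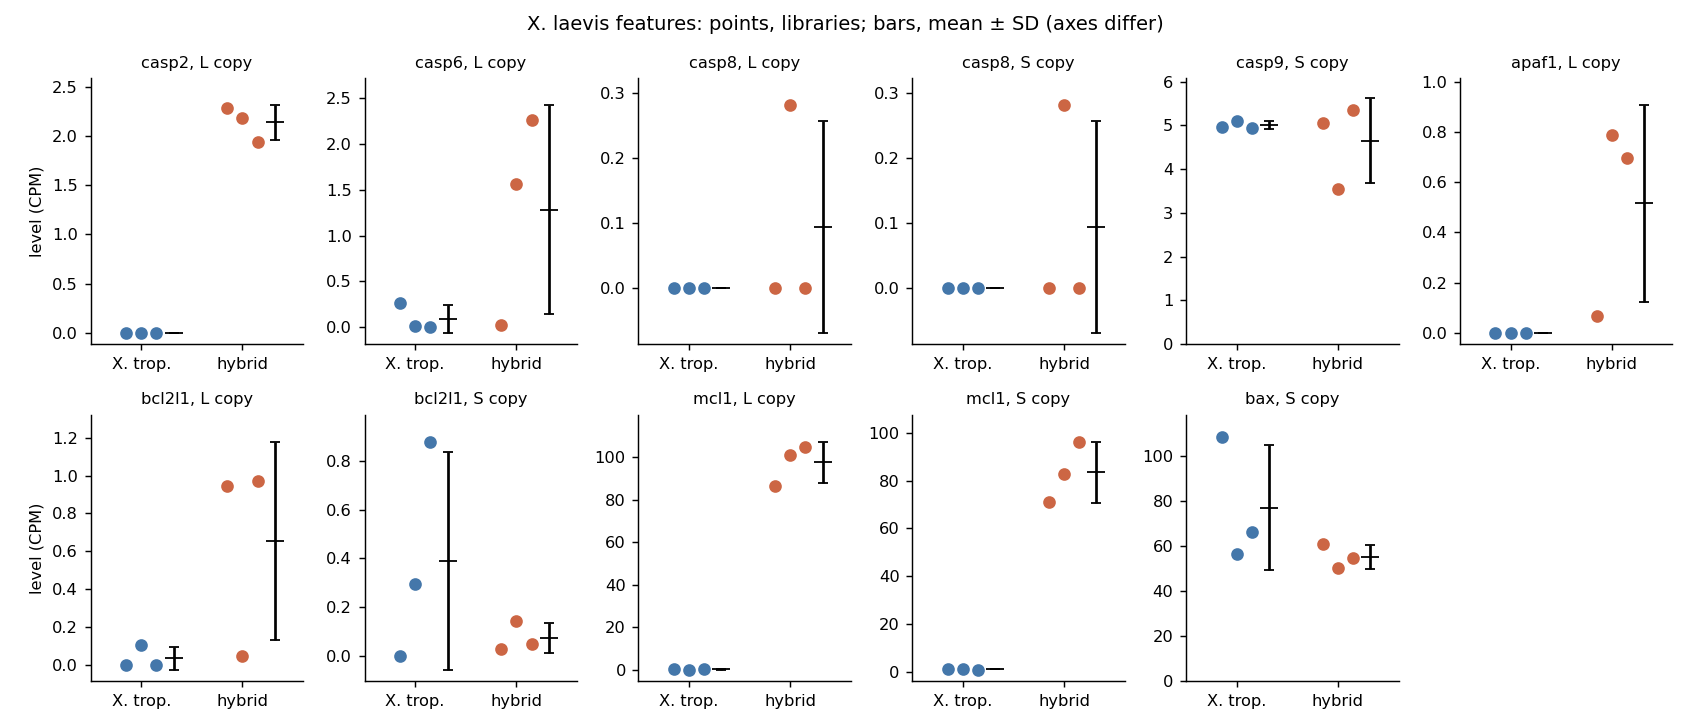
Levels in CPM of the 11 *X. laevis* features in each library (points) with the group mean ± SD (bars), each panel on its own axis, with *X. tropicalis* libraries as background. Both mcl1 copies, the casp2 copy and apaf1.L separate the groups, apaf1.L with hybrid replicate 40 close to background. The casp9 and bax features stand as high in *X. tropicalis* as in hybrids.

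Summed over both species under human gene names, no member passed in either direction. Of 7 names tested (CASP8 was too low), 0 were higher and 0 lower with edgeR, against 5.05% and 2.86% of 12682 names. Before adjustment, at p under 0.05, there were 0 higher and 2 lower, CASP6 and BAX. DESeq2 called 0 higher and 1 lower, BAX. MCL1 stood at 379, 373 and 415 CPM in hybrids and 349, 324 and 364 CPM in *X. tropicalis*, where these CPM use scaling factors from the human-named sums. All 3 hybrid libraries were above the others, as for 16.8% of names tested, but the fold change was small at 0.17 (log2, 95% interval -0.06 to 0.40, edgeR adjusted p = 0.378). The estimate for the sum thus had the opposite sign to that for the *X. tropicalis* copy, without passing the test. Factors from *X. tropicalis* features, an alternative chosen after seeing the data, moved the median log2 fold change of all names from 0.02 to 0.22 and that of MCL1 to 0.37 (edgeR adjusted p = 0.0544). On that scale the paternal copies added 179.7 CPM above background in hybrids, and the *X. tropicalis* copy was lower by 90.5 CPM.

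BAX gave 61.2, 48.8 and 53.3 CPM in hybrids and 123, 63.7 and 74.3 CPM in *X. tropicalis* on the human-name scale. The hybrid libraries were all below, as they were for CASP6 and APAF1 and for 13.0% of names. With factors from *X. tropicalis* features the summed copies of apaf1 overlapped between groups, and those of casp6 did not. For apaf1, hybrid replicate 42 then stood at 16.4 CPM and *X. tropicalis* replicate 39 at 15.6 CPM. BAX holds only the counts of the chromosome 7S feature described above, under other scaling factors. With factors from *X. tropicalis* features the groups overlapped on that feature, at a log2 fold change of -0.48. BAX is thus not a second measure of the gene. Its log2 fold change was -0.68 (95% interval -1.19 to -0.16, edgeR adjusted p = 0.111, DESeq2 adjusted p = 0.0339), and it passed in edgeR without *X. tropicalis* replicate 38 (adjusted p = 0.0465). CASP6 had a log2 fold change of -0.33 (95% interval -0.61 to -0.05, edgeR adjusted p = 0.148), APAF1 -0.36 (adjusted p = 0.415), CASP9 0.10 (adjusted p = 0.8699) and CASP2 0.02 (adjusted p = 0.978). With factors from *X. tropicalis* features the estimates were -0.13 for CASP6 (edgeR adjusted p = 0.553), -0.16 for APAF1 (adjusted p = 0.729) and -0.48 for BAX (adjusted p = 0.218). The sums BAX and BCL2L1 hold no *X. tropicalis* feature, so these values do not compare expression of the whole gene.

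**Figure D4:**
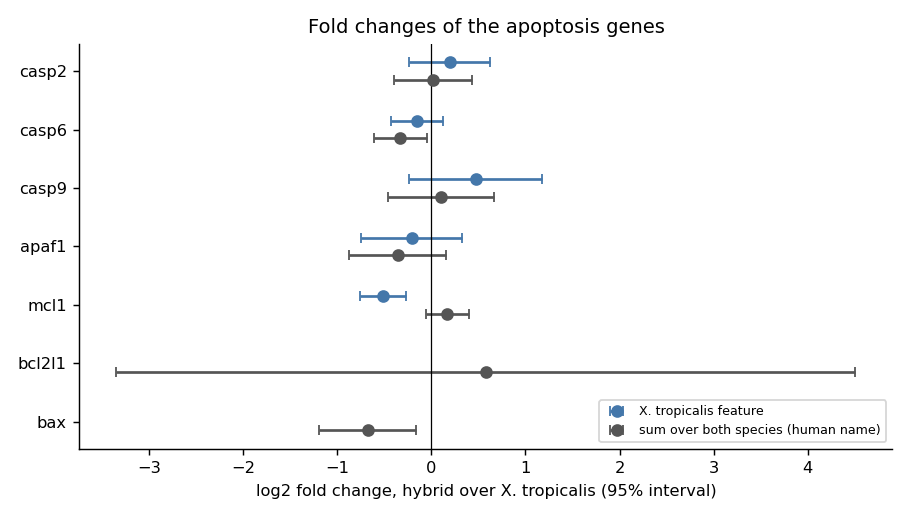
Log2 fold change of hybrid over *X. tropicalis* with 95% intervals, for the *X. tropicalis* feature (blue) and for the sum over both species under the human name (grey). The *X. tropicalis* feature of mcl1 lies at -0.51 with an interval below 0, and its sum lies at 0.17 with an interval that includes 0.

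Other genes of the pathway were read from a list of 43, of which 37 had a feature. Among 37 *X. tropicalis* features tested, 0 were higher and 1 lower (edgeR; before adjustment 3 and 1 at p under 0.05, and by DESeq2 0 and 1), with a median log2 fold change of 0.09 beside 0.01 over all. This is 0% and 2.70%, beside 0.824% and 2.95% of all *X. tropicalis* features tested. The *X. tropicalis* feature pidd-like, described below, was not matched to the list and is not in these counts. The lower feature was parp1 (LOC101730705, chromosome 5), the sensor of DNA breaks that executioner caspases cleave. It stood at 66.2, 51.3 and 61.9 CPM in hybrids and 155, 143 and 137 CPM in *X. tropicalis*, with a log2 fold change of -1.28 ± 0.14 SE (edgeR adjusted p = 6.21e-04). The groups were far apart, and the call held in all 6 fits that left out a library. Its paternal copy on chromosome 5L reached 10.04 CPM ± 3.18 (SD, n = 3) in hybrids and did not make up the difference, and the sum PARP1 was lower by a log2 fold change of -1.25 (edgeR adjusted p = 4.02e-04).

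Among 48 paternal features of the list, 11 were above background and 0 below (edgeR; before adjustment 17 and 0 at p under 0.05, and by DESeq2 15 and 0). This is 22.9%, beside 40.5% of all *X. laevis* features tested. Their median log2 fold change was 4.40, beside 5.87 over all. The paternal feature pidd-like.L, described below, was not matched to the list and is not in these counts or the ranking that follows. After parp1, the smallest adjusted p were those of vdac1 (chromosome 3L), a channel of the mitochondrial outer membrane, at 9.62 CPM ± 4.21 (SD, n = 3), and of the caspase gene casp10.L at 4.16 CPM ± 0.394. The co-chaperone gene bag1.L followed at 2.97 CPM ± 1.62, with the L and S copies of bcl2l11, which encodes the death promoter Bim, at 2.31 CPM ± 0.154 and 5.22 CPM ± 0.655. Their adjusted p (edgeR) ranged from 4.79e-09 for parp1 to 0.00290 for the S copy of bcl2l11. Casp10.L and bag1.L had no count in *X. tropicalis* libraries. Against a floor of 3 counts over the group, their pooled hybrid counts were at least 419-fold and 297-fold higher. This floor covers counting error only. With the spread between libraries, the intervals of their fitted log2 fold changes began at 8.39 and 7.45.

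Of 34 summed names of the list, 1 was higher and 1 lower with edgeR (before adjustment 3 and 2 at p under 0.05, and by DESeq2 3 and 1). This is 2.94% each, beside 5.05% higher and 2.86% lower over all names tested. The median log2 fold change of the 34 was -0.03 beside 0.02 over all. The lower one was PARP1. The higher one was PIDD1, the p53-induced protein that starts the complex activating caspase 2, at 37.1, 31.4 and 34.5 CPM in hybrids and 4.67, 1.76 and 3.10 CPM in *X. tropicalis*, a log2 fold change of 3.43 ± 0.36 SE (edgeR adjusted p = 1.72e-04). Every hybrid library was several times above every *X. tropicalis* library. In every library but *X. tropicalis* replicate 39, most of these counts lay on features named pidd-like. In that library LOC100485833 had 204 counts, against 87 on pidd-like and 4 on pidd-like.L. The pidd-like features entered the list comparisons only through the human-name sum, and they were looked up after PIDD1 had passed. The *X. tropicalis* feature pidd-like (chromosome 4) stood at 20.5, 16.4 and 18.3 CPM in hybrids and 4.05, 1.13 and 0.814 CPM in *X. tropicalis*, a log2 fold change of 3.202 ± 0.58 SE (edgeR adjusted p = 0.0113), and it kept its call without each library in turn. Its log2 fold change was 4.23 without *X. tropicalis* replicate 37, the highest library of that group, and 2.82 to 3.28 without each of the others. The paternal feature pidd-like.L, on chromosome 4L, gave 16.0, 15.2 and 17.3 CPM in hybrids and 0.0209 to 0.0614 CPM in *X. tropicalis*, a log2 fold change of 8.61 ± 0.67 SE (edgeR adjusted p = 1.84e-11). Another *X. tropicalis* feature with that human name, LOC100485833, had 20, 60 and 2 counts in hybrids and 1, 40 and 204 in *X. tropicalis* and did not pass (log2 fold change -1.21, edgeR adjusted p = 0.842). The *X. tropicalis* feature pidd-like was thus higher in hybrids, and LOC100485833 was not. For pidd-like.L the result is presence above background, as for 40.5% of *X. laevis* features tested, since *X. tropicalis* embryos carry no such copy. Whether paternal reads were counted on the *X. tropicalis* feature pidd-like was not tested.

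**Figure D5:**
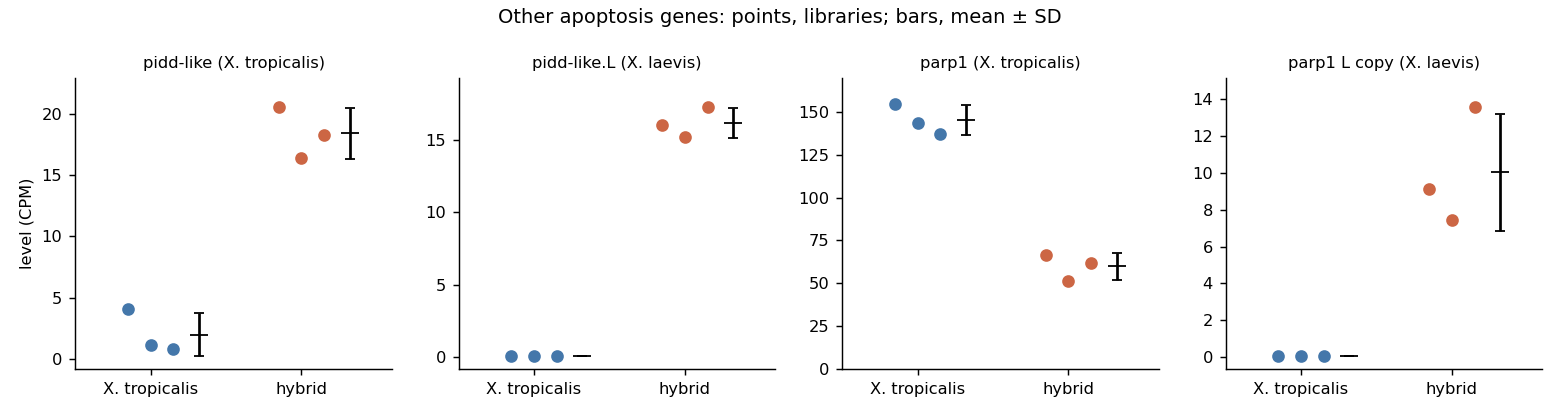
Levels in CPM of pidd-like and parp1 in each library (points) with the group mean ± SD (bars), for the *X. tropicalis* and the *X. laevis* L copy. The pidd-like copies are high in all hybrid libraries (15.2 to 20.5 CPM), and the *X. tropicalis* copy of parp1 is low in them (51.3 to 66.2 CPM against 137 to 155 CPM).

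The *X. tropicalis* features whose levels ran most like mcl1 across the 6 libraries were the small GTPase gene rhov (r = 0.995), pkhd1l1 (r = 0.995) and pgp (r = 0.993), by Pearson correlation of log2(CPM + 0.5) among 9972 features with a gene symbol. Mcl1 was taken because it had the smallest p of the *X. tropicalis* member features. The 6 libraries fall into 2 groups, so the highest correlations pick features with the same difference between groups. That all 3 genes were lower in hybrids, like mcl1, follows from this choice. For rhov the hybrid mean was 213 CPM ± 20.3 (SD, n = 3) and the *X. tropicalis* mean 395 CPM ± 47.8. In the same order the means were 6.01 CPM ± 0.784 and 14.1 CPM ± 1.27 for pkhd1l1, and 0.698 CPM ± 0.238 and 6.61 CPM ± 1.22 for pgp.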

How the data were processed

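Both tables that the authors deposited hold unnormalized counts, 1 by feature and 1 by human gene name, in which features of both species are added up. BWA 0.7.10 was used, per the submitters' processing notes. For the counting program, gene models, genome builds and use of strand, an account is not given in the sources used here, so reads shared by species or by L and S copies may lie on either. The human name MCL1 also sums bcl2l10.L, with 17 to 69 counts per library. No sequence was used.

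Member features were found by symbol, or by human name where named by a model or LOC number. The members and lists were chosen with earlier results of these data known. Counts were tested with edgeR 4.0.16 in R 4.3.3 (quasi-likelihood test, TMM scaling, filterByExpr, Benjamini-Hochberg over all features of a comparison, threshold 0.05). Feature tests used library totals over all features and TMM factors from *X. tropicalis* features. *X. laevis* features needed 10 counts over the hybrid libraries and had *X. tropicalis* libraries as background. Standard errors are the log2 fold change over the square root of F. Intervals of fold changes are 95%. Floors of 3 counts cover counting error only, and PCR copies are not independent molecules. Named genes are all members and, per comparison, up to 6 list genes with the smallest adjusted p under 0.05. DESeq2 1.42.0, RLE factors, other filters and leaving out libraries were alternatives. The tests were run on simulated counts with log2 changes of 2 in well-counted features and less spread between libraries than here. That run does not show how they perform on these data. The labels give no replicate number to both groups, so there was nothing to pair. Figures were drawn with matplotlib 3.10.9.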

Additional observations from a re-analysis of the deposited data

How the results depend on the processing

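Leaving out each library in turn gave 0 lower *X. tropicalis* member features in every fit in place of 1, 3 to 5 member features above background in place of 4, and 0 to 1 lower members among human names in place of 0. Counts over whole tables ranged from 54 to 160 higher and 264 to 487 lower *X. tropicalis* features (116 and 415 with all libraries), 8213 to 9570 and 35 to 56 *X. laevis* features (9699 and 47), and 342 to 647 and 164 to 402 human names (640 and 363). Over 1.5 times fewer were called without hybrid replicates 41 or 42 or *X. tropicalis* replicates 37 or 39, in at least 1 of these counts each. DESeq2 called 398 and 795 *X. tropicalis* features, 1044 and 686 human names, and 1 lower member among human names (BAX). Without a filter there were 259 higher *X. tropicalis* and 76 lower *X. laevis* features. A filter of 5 CPM in 3 libraries left 3019 *X. laevis* features above background, 2 of them members (mcl1.L and mcl1.S), since fewer features were tested. TMM factors from all features gave 103 lower *X. laevis* features and 1 lower member, the bax feature (log2 fold change -0.79, adjusted p = 0.0160). Human names scaled by *X. tropicalis* features, chosen after seeing the data, gave 1048 higher and 193 lower. The sign changed without single libraries for values that had not passed: casp2 (-0.034 to 0.31), casp9.S (-0.22 to 0.057), CASP2 (-0.20 to 0.11), CASP9 (-0.053 to 0.24) and BCL2L1 (-0.0026 to 1.68). Subtracting background, with libraries below it set to 0, took the paternal share of casp9 from 25.4% to 0.944% ± 1.36 (SD, n = 3), while its mean net level was -0.354 CPM. The causes of the other differences were not tested. Counts were lowest for casp8, bcl2l1, casp6.L and apaf1.L among member features, at most 146 in a library.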
